A study of Homo sapiens with 2 samples.

Results

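The cells described here are human embryonic stem cells that carried transcripts of the 8-cell (8C) embryo and had a very low share of mitochondrial transcripts. They were selected on measured values. A cell barcode was taken as a cell when it had at least 1000 detected genes, it was called low-mitochondrial when mitochondrial genes gave less than 2% of its unique molecular identifiers (UMIs, each counting 1 captured RNA molecule), and it was called 8C-like when at least 3 of 8 genes had a UMI. These 8 calling genes were ZSCAN4, LEUTX, TPRX1, DUXA, DUXB, ZNF280A, RFPL2 and KHDC1L. In the ASO-L1 library 291 of 2531 low-mitochondrial barcodes were 8C-like, out of 9614 barcodes with 1000 or more genes and 11659 barcodes in all. In the SO-L1 library 17 of 1857 were, out of 7025 and 13070. The comparison throughout is between 8C-like cells and the other low-mitochondrial cells of the same library, which numbered 2240 in ASO-L1 and 1840 in SO-L1, and the calling genes are left out of its results.

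Both libraries came from H9, an established human embryonic stem cell line, grown in the naive state in RSeT medium with 10 nM DZNep, an inhibitor of S-adenosylhomocysteine hydrolase that lowers histone methylation, and 5 nM trichostatin A, a histone deacetylase inhibitor. The ASO-L1 cells were transfected with 25 nM of a fluorescein-labelled antisense oligonucleotide against the LINE1 retrotransposon, and the SO-L1 control cells with 25 nM of the sense oligonucleotide with the same dye. Both cultures also held 0.7 µM trans-ISRIB, a blocker of the integrated stress response, 5 µM emricasan, a caspase inhibitor, and 10 µM Y-27632, a ROCK inhibitor, all taken away after 24 h. At 48 h 100000 fluorescent cells of each culture were sorted, and 12000 were targeted for 3′ single-cell RNA sequencing. Each oligonucleotide had 1 library, so there are no replicates and no test is given. Intervals are exact 95% intervals that cover counting error only. Levels are given as CPM, the UMIs of a gene per 1000000 UMIs of the summed cells. A gene is called higher or lower when its summed level differed at least 2-fold.

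In the human embryo, transcription of the embryo's own genome starts in force around the 8-cell stage. The factor DUX4 and paired-type homeobox proteins such as TPRX1, DUXA, DUXB and LEUTX are transcribed then together with ZSCAN4, a zinc finger protein. Rare cells of naive cultures can carry part of this program, and such cells are called 8C-like. Naive cells resemble the inner cell mass of the blastocyst, while primed cells resemble the later epiblast.

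Libraries were deep. The 8C-like cells of ASO-L1 held a median of 45967 UMIs in 7314 genes, with a range of 1754 to 177670 UMIs, and the other low-mitochondrial cells 44526 UMIs in 7876 genes. The 8C-like cells of SO-L1 had a median of 34177 UMIs and their comparison cells 33583 UMIs. The median mitochondrial share was 0.135% in the 8C-like cells and 0.132% in the other low-mitochondrial cells of ASO-L1, against 7.51% in the 7083 barcodes at 2% or more. The 2 libraries shared 6105 barcode sequences, and in 6078 of these pairs the smaller partner had under 5% of the UMIs of the larger. Of the 8C-like cells, 176 of ASO-L1 had a shared sequence and held the larger total each time, and 4 of SO-L1 did, 1 of them as the smaller partner with 2020 UMIs. Without any shared sequence, 115 8C-like cells and 928 others remained in ASO-L1, a share of 11% without them against 11.5% with them. No doublet caller was run on these cells.

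The share of 8C-like cells was 11.5% (10.3 to 12.8) of the low-mitochondrial cells in ASO-L1 and 0.915% (0.534 to 1.46) in SO-L1. Most 8C-like cells lay near the limit of the rule. In ASO-L1, 161 had 3 calling genes, 80 had 4, 31 had 5, 12 had 6, 7 had 7 and none had all 8, while 387 cells with 2 calling genes lay just outside. In SO-L1, 6 cells had 3, 8 had 4, 2 had 5 and 1 had 6, and 37 had 2. On the mitochondrial side, 16 of the 291 lay between 1% and 2%, and 23 of 144 barcodes between 2% and 3% also held 3 or more calling genes.

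**Figure D1:**
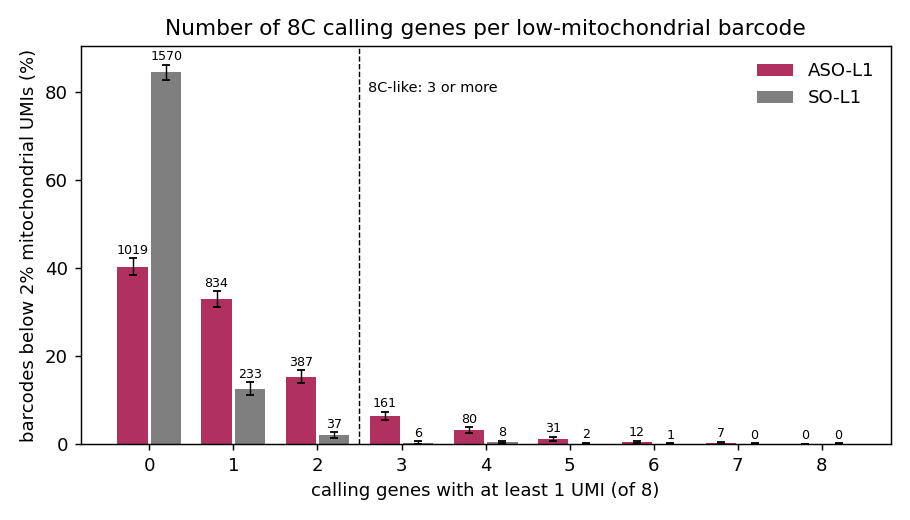
Share of low-mitochondrial barcodes (y axis, %) by the number of the 8 calling genes with at least 1 UMI (x axis), for the ASO-L1 and SO-L1 libraries, with exact 95% intervals for counting error as error bars. In ASO-L1 40.3% of barcodes held none of the 8, against 84.5% in SO-L1, and cells with 3 or more are called 8C-like.

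The calling genes were not detected evenly, as these values of the rule itself show. KHDC1L had a UMI in 95.9% of the 8C-like cells and 45.7% of the other low-mitochondrial cells of ASO-L1. ZNF280A had a UMI in 85.6% and 11.3%, and TPRX1 in 78.4% and 9.29%. DUXB had a UMI in 49.1% and 1.21%, ZSCAN4 in 34.7% and 2.86%, and RFPL2 in 20.3% and 0.714%. DUXA reached 5.50% and 0.670%, and LEUTX 1.37% and 0.0893%. The commonest combination was TPRX1 with ZNF280A and KHDC1L in 80 cells, followed by these with DUXB in 34, and 274 of the 291 held at least 1 of the homeobox genes. When each cell was thinned to 12500 UMIs, 262 8C-like cells of ASO-L1 were deep enough and 144 of them (55.0%) still held at least 3 calling genes, so detection by the rule moved with depth.

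The label was set beside a list of 36 other genes known from the human 8-cell stage, 34 of them in the count table. Their summed level in ASO-L1 was 2427 CPM in the 8C-like cells, 530 in the other low-mitochondrial cells and 184 in barcodes at 2% or more mitochondrial UMIs, a ratio of 4.58 (4.51 to 4.64) of the 8C-like over the other low-mitochondrial cells. In SO-L1 the 3 levels were 3266, 210 and 88.2 CPM, a ratio of 15.6. Most of both ASO-L1 sums of low-mitochondrial cells came from CCNA1, at 1094 in the 8C-like cells and 313 in the others, and PNP, at 821 and 176. Of the 34 genes, 12 had enough UMIs to be measured, and a gene could pass that filter through its high values in the 8C-like cells, so their count is not read as support. Of the rest, 5 had no UMI in the 8C-like cells, among them DUX4 itself, whose many copies near chromosome ends share their sequence. In sum the other 8C genes were higher in the 8C-like cells of both libraries, and DUX4 had no UMI among the 14791985 of the 8C-like cells of ASO-L1. The list was chosen with earlier results of these data known, and the cells were selected on genes of the same stage. Its higher sum is therefore no independent check of the label.

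Promoters are shown for 3 genes that were high in the 8C-like cells, because paired-type homeobox proteins of this stage can bind TAATCC and DUX4 has a known motif that can hold it. DPPA3 and HJV are shown as the 2 of the 15 highest-ranked genes with TAATCC, and H3Y1, the RefSeq name of H3.Y, was chosen after its values were seen. Each run gives the 250 bases before the RefSeq start site in GRCh38.p14, at chr12:7711183-7711432 on the plus strand for DPPA3, chr1:146021736-146021985 on the minus strand for HJV and chr5:17655850-17656099 on the minus strand for H3Y1. Capitals mark TAATCC in DPPA3 and HJV, and in H3Y1 the match to the DUX4 motif, which contains TAATCC.
DPPA3: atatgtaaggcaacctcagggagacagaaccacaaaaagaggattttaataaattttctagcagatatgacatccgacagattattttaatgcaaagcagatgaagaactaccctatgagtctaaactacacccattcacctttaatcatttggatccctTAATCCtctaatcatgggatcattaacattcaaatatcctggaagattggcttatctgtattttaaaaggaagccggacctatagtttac
HJV: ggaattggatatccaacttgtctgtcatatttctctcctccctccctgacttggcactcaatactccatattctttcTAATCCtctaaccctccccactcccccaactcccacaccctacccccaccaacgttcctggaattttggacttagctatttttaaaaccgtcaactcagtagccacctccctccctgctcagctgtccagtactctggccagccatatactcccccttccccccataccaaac
H3Y1: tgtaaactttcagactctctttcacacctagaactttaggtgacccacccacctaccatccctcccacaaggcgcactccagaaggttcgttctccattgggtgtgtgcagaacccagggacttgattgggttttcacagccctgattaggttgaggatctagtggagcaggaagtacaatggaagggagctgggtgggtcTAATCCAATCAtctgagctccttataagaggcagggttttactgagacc

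TAATCC, searched on both strands of those 250 bases, lay in 2 of the 12 highest-ranked genes with a promoter in the table (16.7%), in 0 of the 12 lowest-ranked, and in 1974 of all 35116 promoters (5.62%). The octamer ATGCAAAT lay in 0 of the 12 and in 1.63% of all, and CCACACCC in 2 of the 12 (16.7%, FAM151A and HJV) and in 2.97% of all. The DUX4 motif lay in 0 of the 12 and in 51 of all promoters (0.145%), of which H3Y1 is 1. With 12 promoters these are descriptions of letters in a window.

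Among genes outside the calling set, 18512 were measured in ASO-L1, meaning that at equal levels at least 10 UMIs were expected in the 8C-like cells. In the 8C-like cells 1161 of them (6.27%) passed 2-fold upward and 2751 (14.9%) passed it downward. In SO-L1, with 17 8C-like cells, 8738 genes were measured, 552 were higher (6.32%) and 1315 lower (15%). The median gene lay below equality, at a log2 ratio of −0.19 in ASO-L1 and −0.20 in SO-L1, and after setting that median to 0 the counts in ASO-L1 were 1602 higher and 2026 lower. That moved the share of calls that were higher to 44.2% in ASO-L1, against 29.7% before, and to 46.4% in SO-L1, against 29.6% before. Of the 1161 genes higher in ASO-L1, 131 were measured in SO-L1, where 113 were also at least 2-fold higher and 0 lower. Of the 2751 lower genes 1404 were measured there, of which 644 were lower and 12 higher.

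Leaving out all shared barcode sequences gave 750 genes higher and 2232 lower in ASO-L1. The median log2 ratio of the general pluripotency list was then −0.58, of the primed list −1.13, of the nucleolar list 0.32 and of the naive list 0.14, the last with the opposite sign. Of the genes named here that had passed 2-fold, UHRF1, NUPR1, DPPA5, FGF2, DNMT1, SLC7A5, NOL6, PDGFRA and KRT17 did not pass it without these sequences. Their log2 ratios were then −0.30 for UHRF1, 0.42 for NUPR1, −0.66 for DPPA5, −0.92 for FGF2, −0.997 for DNMT1, 0.93 for SLC7A5, 0.97 for NOL6, 0.38 for PDGFRA and 0.056 for KRT17, the last 2 with the opposite sign. The log2 ratio of LEFTY2 was −2.96, against −1.89 with them, and that of GNRH1 6.19, against 5.55.

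Among genes with a UMI in at least 25% of the 8C-like cells, ranked by the lower bound of the ratio and leaving out antisense, LINC and clone-named transcripts, the first was GNRH1, the precursor of gonadotropin-releasing hormone (chr8:25419260-25424654, GRCh38). It had 131 CPM in the 8C-like cells and 2.79 in the other low-mitochondrial cells of ASO-L1, a ratio of 46.8 (41.2 to 53.2). In SO-L1 it had 22.9 and 1.40, with too few UMIs to be measured there. After thinning it had a UMI in 24.8% of the 8C-like cells, 2.92% of the other low-mitochondrial cells and 1.98% of barcodes at 2% or more. The 10% of 8C-like cells of ASO-L1 with most of its UMIs held 83.6% of them, so its UMIs came from few of them.

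SLC34A2, a sodium-dependent phosphate transporter (chr4:25648011-25678748), had 82.4 CPM in the 8C-like cells and 2.42 in the others of ASO-L1, and 123 against 0.188 in SO-L1. It was found in 32.8% of thinned 8C-like cells, against 1.73% of the other low-mitochondrial cells. FAM151A had 177 against 9.06 CPM in ASO-L1 and 201 against 1.16 in SO-L1. It overlaps ACOT11, an acyl-CoA thioesterase on the opposite strand with 57.2 against 5.47, and the sources used here do not state whether counting used strand, so the 2 cannot be told apart with certainty. TRIM60 had 28.0 against 1.71 CPM in ASO-L1 and 83.8 against 1.63 in SO-L1. SLC34A2, FAM151A and TRIM60 were on the list of other 8C genes and stood high in the 8C-like cells of both libraries. None of them had enough UMIs to be measured in SO-L1.

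DPPA3, also called STELLA, is a maternal factor that protects DNA methylation in the early mouse embryo and a marker of naive human cells. It had 478 CPM in the 8C-like cells and 35.0 in the other low-mitochondrial cells of ASO-L1, a ratio of 13.6 (13.1 to 14.2), and 346 against 18.2 in SO-L1, a ratio of 19.0. It was found in 60.3% of thinned 8C-like cells, 16.3% of the other low-mitochondrial cells and 15.6% of barcodes at 2% or more mitochondrial UMIs, so it was also the more widespread of these genes. HJV, hemojuvelin, a co-receptor for bone morphogenetic proteins, had 26.8 against 1.68 CPM in ASO-L1 and 50.3 against 0.959 in SO-L1, where it rested on 33 UMIs in 11.8% of the 17 8C-like cells and did not pass the filter on low counts.

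H3.Y, a primate-specific histone H3 variant, had 32.0 CPM in the 8C-like cells and 0.241 in the others of ASO-L1, a ratio of 133, and 309 against 0.462 in SO-L1. It had too few UMIs to be measured in SO-L1. Its near-identical copies make the count uncertain, and the 10% of 8C-like cells of ASO-L1 with most of its UMIs held 93.4% of them. KLF17, a zinc finger factor of naive cells and the early embryo, had 36.5 against 1.0, a ratio of 36.3 (29.3 to 45.4), and the top 10% of cells held 88.1% of its UMIs. Both were therefore concentrated in a small subset. More widespread were PNP, a purine salvage enzyme, at 821 against 176, and CCNA1, the germ-line cyclin A1, at 1094 against 313 CPM. Thinned 8C-like cells had a PNP UMI in 93.1%, against 76.0% of the others, and a CCNA1 UMI in 78.2%, against 31.1%. In SO-L1 the ratios of PNP and CCNA1 were 7.44 and 13.3.

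The other high-ranked genes belong to unlike families. FGF14, an intracellular fibroblast growth factor that binds sodium channels, had a ratio of 19.2 of 8C-like over other low-mitochondrial cells, CCDC190 of 25.0, ITGAM (the integrin chain CD11b) of 12.8, VMO1 of 12.3 and DCX, the microtubule-binding doublecortin, of 8.46. MRLN, which encodes a micropeptide that inhibits a calcium pump of muscle, had 176 against 21.5 CPM, TFIP11, a protein of spliceosome disassembly, 183 against 23.3, and MFSD2A, a lysophosphatidylcholine transporter, 9.35 against 1.04. TFIP11 overlaps SRRD on the opposite strand, which had a ratio of 1.125. In SO-L1 the ratio was 7.04 for DCX, 10.3 for TFIP11 and 48.0 for ITGAM, and of these 8 genes TFIP11 alone had enough UMIs to be measured there. CCDC190 rested on 2 UMIs in the 8C-like cells of SO-L1, with an interval of 0.850 to 29.9.

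**Figure D2:**
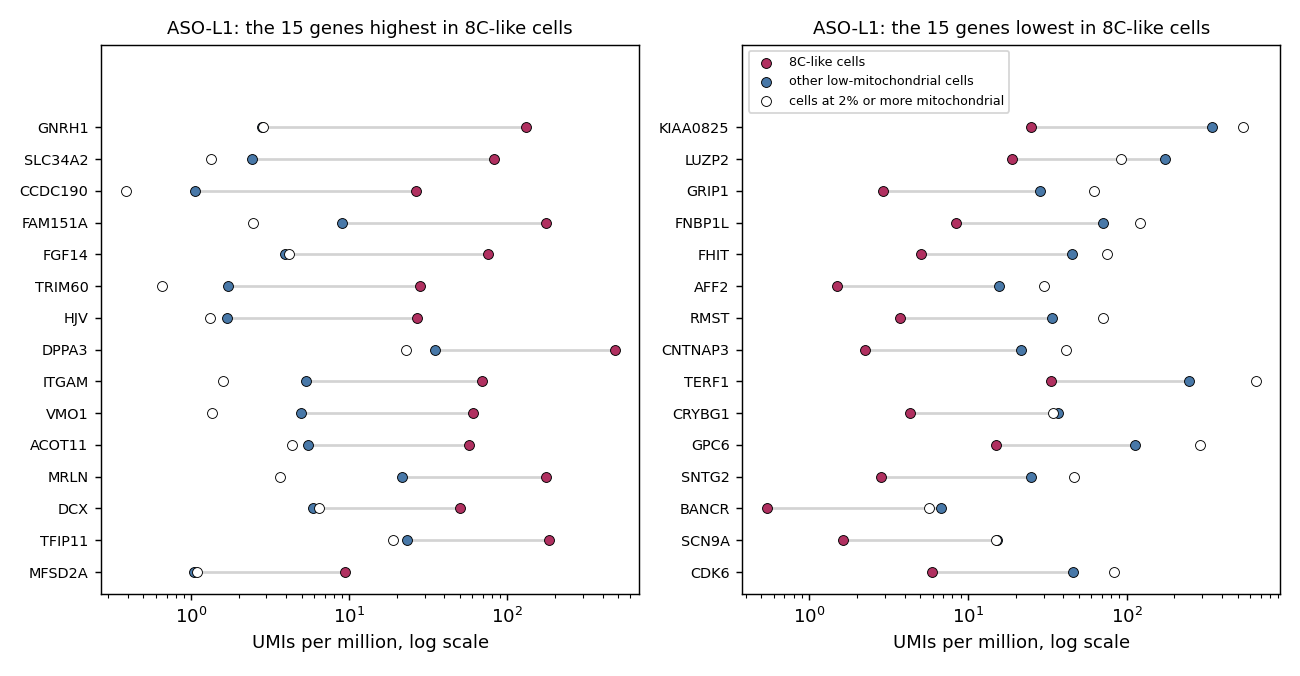
Levels in the ASO-L1 library (x axis, CPM, log scale) of the 15 highest-ranked genes and the 15 lowest-ranked genes (y axis), as points for 8C-like cells, other low-mitochondrial cells and barcodes at 2% or more mitochondrial UMIs. The highest-ranked genes, such as DPPA3 at 478, 35.0 and 22.8, are high in the 8C-like cells, while most of the lowest-ranked, such as KIAA0825 at 25.0, 343 and 540, are higher in barcodes at 2% or more than in the other low-mitochondrial cells.

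Many of the transcripts with high ratios in ASO-L1 were not annotated as protein-coding. Of the 347 genes at least 4-fold higher there, 195 were of other types or without annotation and 152 protein-coding, while 3835 of all 18512 measured genes were of other types or without annotation. In SO-L1 most genes at least 4-fold higher, 105 of 117, were protein-coding. The other 12 were of other types or without annotation, beside 484 of its 8738 measured genes. A gene with few UMIs could pass the filter on low counts through its high values in the 8C-like cells. These counts are therefore not read as a result about gene types. The following were named after their values were seen. AC025171.5 had 195 CPM in the 8C-like cells and 0.924 in the others, a ratio of 211, and AC243829.2 had 882 and 24.1, a ratio of 36.5. AP005482.1 reached a ratio of 61.0, LINC00298 of 45.5, LINC02211 of 38.6 and AC090015.1 of 24.9. AC243829.2 had a UMI in 72.5% of the 8C-like cells. AC025287.4, at a ratio of 56.3, has a clone name but is annotated as protein-coding. It overlaps TERF2IP on the opposite strand, a telomere protein gene with a ratio of 2.40. The calling gene DUXB lies in the same region, so TERF2IP and AC025287.4 are uncertain.

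Maternal and oocyte genes were mixed apart from DPPA3. Of 16 measured in ASO-L1, 4 were higher and 3 lower in the 8C-like cells, beside 6.27% of all measured genes higher and 14.9% lower, with a median log2 ratio of 0.42 against −0.19 for all measured genes. ZAR1, an oocyte RNA-binding protein, was 6.58-fold higher, at 11.2 against 1.70 CPM, and DAZL, a germ-cell RNA-binding protein, was lower, at 2.17 against 7.27. NLRP7, a subcortical maternal complex gene that overlaps NLRP2 on the opposite strand, had 509 against 284. The list's summed level was 1285 CPM in the 8C-like cells, 559 in the other low-mitochondrial cells and 395 in barcodes at 2% or more.

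Naive pluripotency genes went both ways. Of 30 measured in ASO-L1, 8 were higher and 6 lower, beside the same shares of all genes, and the median log2 ratio was −0.07, or 0.12 relative to the median of all measured genes. ALPG, a placental-type alkaline phosphatase, had 3130 CPM in the 8C-like cells and 921 in the others of ASO-L1, and 3898 and 353 in SO-L1, although ALPG and ALPP are near copies of each other. TFAP2C, a factor needed for the naive state, was 4.31-fold higher in ASO-L1, at 109 against 25.3, and 4.43-fold higher in SO-L1. DNMT3L was 3.09-fold and KLF5 2.55-fold higher. Lower members were FGF4 at 4.88 against 19.6, DPPA5 at 61.8 against 144 and PRDM14 at 16.3 against 46.8. In sum the list stood at 4340 CPM in the 8C-like cells and 1985 in the others, of which ALPG made up 3130 and 921. The sum was thus higher in the 8C-like cells while the median, before it is set against that of all genes, was below 0.

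General pluripotency genes stood lower in the 8C-like cells. In ASO-L1 the list had a median log2 ratio of −0.72 over 16 measured genes, with 5 lower and 1, MYCN, higher, and in SO-L1 −0.91 over 15. Over all measured genes of ASO-L1 the median was −0.19, with 14.9% lower and 6.27% higher. This difference was from all other low-mitochondrial cells pooled. The summed list was at a like level, 1717 CPM in the 8C-like cells, against 1754 in the cells with 2 calling genes. POU5F1 (OCT4) had 400 CPM in the 8C-like cells and 641 in the others of ASO-L1, a ratio of 0.624 (0.607 to 0.641), and 584 against 960 in SO-L1, a ratio of 0.608. POU5F1 was still found in 92.4% of thinned 8C-like cells. SOX2 had a ratio of 0.766 in ASO-L1 and 0.374 in SO-L1, and NANOG of 0.739 and 0.784, none of the ASO-L1 values past 2-fold. TERF1, a telomere-binding protein of the shelterin complex that is abundant in stem cells, had 33.3 against 246 in ASO-L1 and 204 against 663 in SO-L1. The summed list stood at 2909 CPM in all other low-mitochondrial cells of ASO-L1 and 5362 in barcodes at 2% or more. Low-mitochondrial cells with 0 calling genes stood between them, at 4169, so the class was not evenly low.

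Most measured primed pluripotency genes were lower in the 8C-like cells. Of 18 measured in ASO-L1, 13 were lower in the 8C-like cells and 0 higher, with a median log2 ratio of −1.45, beside 14.9% of all measured genes lower. In SO-L1 9 of 13 were lower and the median was −1.36. DNMT3B, a de novo DNA methyltransferase, had 24.9 CPM in the 8C-like cells and 121 in the others of ASO-L1, and a ratio of 0.404 in SO-L1. PODXL, a surface sialomucin, had 9.96 against 46.1, and FGF2 73.4 against 157. OTX2 and SFRP2 were also among those lower, at ratios of 0.357 and 0.268.

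Nodal signalling runs from the ligand NODAL through its co-receptor TDGF1 to the DNA-binding partner FOXH1, and its targets include the inhibitors LEFTY1 and LEFTY2. The ligand had 158 CPM in the 8C-like cells and 206 in the others of ASO-L1. TDGF1 was lower, at 62.7 against 195, and so was FOXH1, at 50.1 against 111. LEFTY2 had 168 against 625 in ASO-L1 and 30.5 against 549 in SO-L1, ratios of 0.269 and 0.0555, and LEFTY1 had ratios of 0.272 and 0.0302, with the caution that both genes are close in sequence. LEFTY2 had a UMI in 34.4% of thinned 8C-like cells, 72.3% of the others and 94.7% of barcodes at 2% or more. Of 23 pathway genes measured in ASO-L1, 7 were lower and 1, the pseudoreceptor BAMBI, was higher, beside 14.9% and 6.27% of all measured genes.

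Of the DNA methylation enzymes, 6 of 13 were lower and 2 higher in the 8C-like cells of ASO-L1, beside 14.9% and 6.27% of all measured genes. In SO-L1 1 of 9 was lower and 1 higher. DNMT1, the maintenance enzyme, had a ratio of 0.431, its partner UHRF1 of 0.426, and TET1, which oxidises methylcytosine, of 0.492, while TET2 was 2.79-fold higher. In SO-L1 the ratios of DNMT1 and TET1 were 0.553 and 0.780, neither past 2-fold. The summed enzymes of ASO-L1 stood at 1137, 834 and 710 CPM with 0, 1 and 2 calling genes, against 601 in the 8C-like cells. Much of the difference was thus already present in cells outside the rule. Among 13 measured subunits of Polycomb repressive complex 2, which the study's title names, 1 was lower. This was the catalytic subunit EZH2, at 11.4 CPM in the 8C-like cells against 29.5 in the others of ASO-L1, a ratio of 0.385 (0.328 to 0.450). In SO-L1 EZH2 stood at 65.5 against 62.7, a ratio of 1.04 (0.755 to 1.41), so the ASO-L1 direction was not seen there. EED had a ratio of 1.21, SUZ12 of 0.720 and JARID2, an accessory subunit, of 0.50 at the limit of the call. The summed subunits of ASO-L1 stood at 1695, 1072 and 874 CPM with 0, 1 and 2 calling genes, against 850 in the 8C-like cells.

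Nucleolar and rRNA synthesis genes, also a subject of the study, stood slightly above the median of all measured genes as a group. Their median log2 ratio was 0.37 over 65 genes in ASO-L1 and 0.46 over 60 in SO-L1, against −0.19 and −0.20 for all measured genes, but 1 of the 65 passed 2-fold in ASO-L1, NOL6 at 24.9 against 11.1. FBL, the rRNA methyltransferase fibrillarin, had 364 against 243, NHP2, of the H/ACA particles, 367 against 188, NCL (nucleolin) 867 against 796, and NPM1 (nucleophosmin) 994 against 1218 CPM. The sum was 9135 CPM in the 8C-like cells, 7320 in the other low-mitochondrial cells and 9217 in barcodes at 2% or more, so the 8C-like cells stood at the level of the last. TRIM28, which acts with nucleolin and LINE1 RNA in mouse embryonic stem cells, had 455 against 360. The genes of LINE1 silencing had a median log2 ratio of −0.19, as did all measured genes. Of 29 measured, 3 were lower and 0 higher, beside 14.9% and 6.27% of all measured genes.

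**Figure D3:**
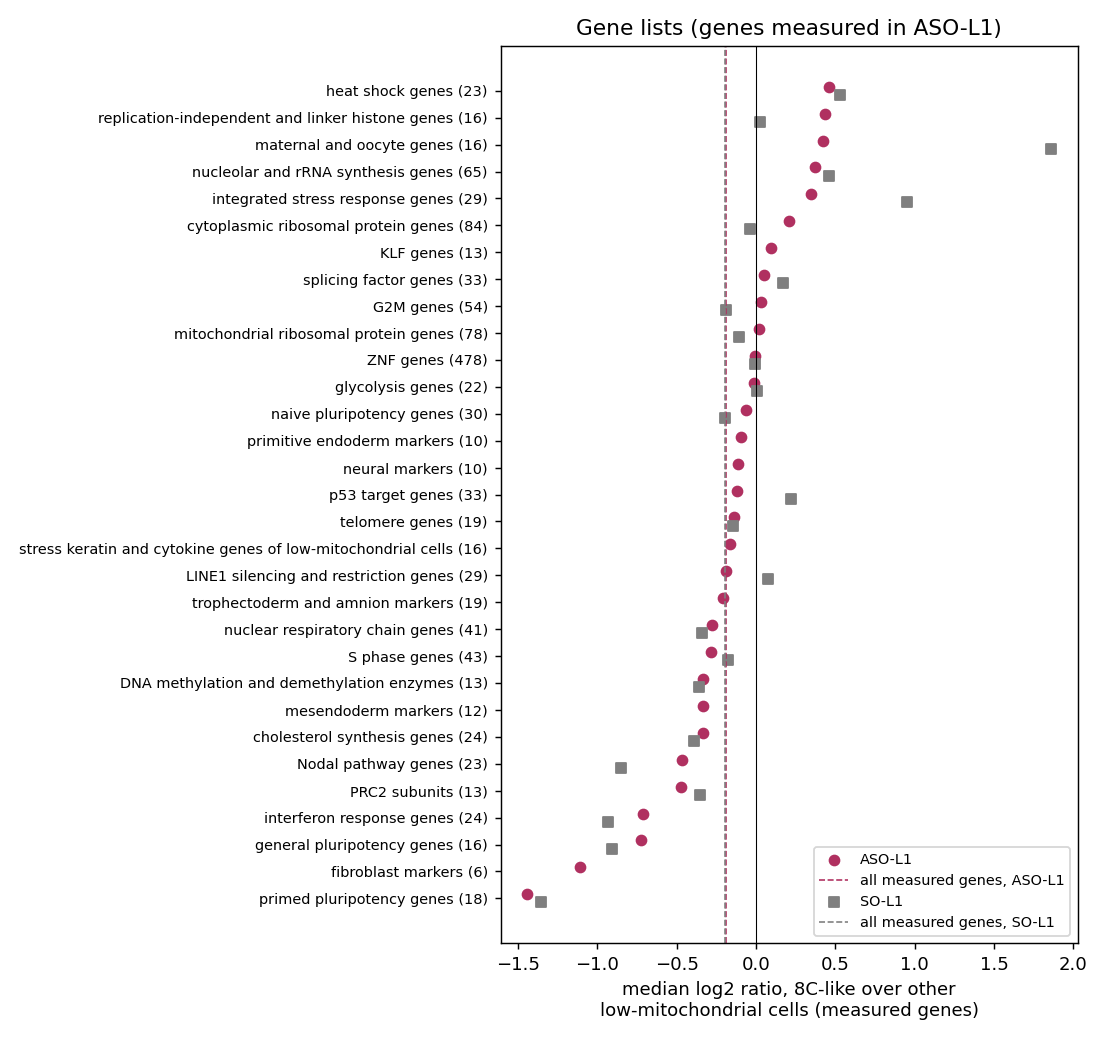
Median log2 ratio of 8C-like over other low-mitochondrial cells (x axis) for each gene list (y axis, with the number of genes measured in ASO-L1), as points for ASO-L1 and SO-L1; dashed lines mark the median of all measured genes. Primed and general pluripotency lists lie at −1.45 and −0.72 in ASO-L1, and the nucleolar list at 0.37.

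The summed integrated stress response and heat shock lists were higher in the 8C-like cells than in the other low-mitochondrial cells, and higher in these than in barcodes at 2% or more, in both libraries. In ASO-L1 the integrated stress response list stood at 5920 CPM in the 8C-like cells and 4418 in the other low-mitochondrial cells. Barcodes at 2% or more had 2640. Of its 29 measured genes 2 were higher and 0 lower, beside 6.27% and 14.9% of all measured genes. SLC7A5, an amino acid transporter, was 2.02-fold higher in ASO-L1 and 7.98-fold in SO-L1, and NUPR1, a stress-induced chromatin protein, 2.07-fold in ASO-L1. In SO-L1 the list stood at 6446, 2576 and 1685 CPM in the same order, 13 of 27 genes were higher and 0 lower, and the endoplasmic reticulum chaperone HSPA5 was 4.01-fold higher there, against 1.28-fold in ASO-L1. The SO-L1 median of the list, 0.95, was −0.27 in the 7 8C-like cells left without the 10 with most UMIs. The p53 target list was close in both classes of ASO-L1, at 3190 and 2995 CPM, with CDKN1A, the p21 cell cycle inhibitor, at a ratio of 1.33 and GADD45A of 1.89. Of the heat shock genes HSPA1B was 2.31-fold and HSPA1A 2.24-fold higher in ASO-L1, and these 2 are near copies. The heat shock list stood at 13709, 11824 and 9282 CPM in ASO-L1 and at 13817, 9145 and 8488 in SO-L1, in the same order. With 0, 1, 2, 3, 4 and 5 or more calling genes in ASO-L1, the integrated stress response list stood at 3343, 4949, 5388, 6124, 5753 and 5465 CPM. The heat shock list stood at 10060.5, 12793.5, 13213, 14163, 13457 and 12493. Both were highest with 3 calling genes, and much of their difference was already present between 0 and 1. The part of these lists in the results on other genes was not tested.

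Summed markers of each other cell type listed here were below those of the other low-mitochondrial cells in the 8C-like cells of ASO-L1. Fibroblast markers summed to 736 CPM in the 8C-like cells and 1484 in the others of ASO-L1, with 3 of 6 measured lower, 0 higher, and LUM and PDGFRB at 0 UMIs in the 8C-like cells. The stress keratin and cytokine list, chosen on an earlier look at these low-mitochondrial cells, summed to 452 and 705, and KRT17 had 17.3 against 43.5, a direction that was the opposite against cells with 0 calling genes. Trophectoderm and amnion markers summed to 1505 and 1744, with 1 of 19 higher, beside 6.27% of all measured genes. It was GATA3, at 3.79 against 0.573 from 56 UMIs in the 8C-like cells, high values through which it could pass the filter. Mesendoderm markers summed to 136 and 253, with TBXT at 0 UMIs in the 8C-like cells, although GSC (goosecoid) was 9.27-fold higher, at 8.20 against 0.884. Primitive endoderm markers summed to 56.3 and 64.2, with PDGFRA at 7.72 against 19.5, and neural markers to 759 and 877. Cells with 0 calling genes had 1234 CPM for the trophectoderm and amnion list and 717 for the neural list, below the 8C-like cells. Their sums of the other lists in this paragraph were above those of the 8C-like cells. Interferon response genes were lower in 7 of 24 and higher in 1, beside 14.9% and 6.27% of all measured genes, with ISG15 at 152 against 278. IFIT1 had 0.745 against 4.16, a log2 ratio of −2.48 that was −0.16 against cells with 0 calling genes. In SO-L1 the sums of the trophectoderm and neural lists were higher in the 8C-like cells, at 1304 against 1004 and 1001 against 809. The part of any of these cells in the results was not tested.

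Metabolic, cell cycle and RNA-processing lists differed in single members more than as groups. Cytoplasmic ribosomal protein genes and replication-independent and linker histone genes stood slightly higher as groups in ASO-L1. SLC2A3, the neuronal-type glucose transporter, was 3.50-fold higher in ASO-L1 and 5.47-fold in SO-L1, and hexokinase HK2 was 2.81-fold higher in ASO-L1, while the glycolysis median was −0.01, or 0.18 relative to all measured genes. HNRNPF, a splicing regulator, had 1106 CPM in the 8C-like cells and 403 in the others of ASO-L1, and a ratio of 4.25 in SO-L1, while the imprinted splicing gene SNRPN had a ratio of 0.374 in ASO-L1. Cytoplasmic ribosomal protein genes had a median of 0.21 in ASO-L1 and −0.04 in SO-L1 (0.16 relative to the median of all genes there). In ASO-L1 81 of the 84 measured lay within 2-fold. Their sum there was 237495 CPM in the 8C-like cells and 208193 in the other low-mitochondrial cells. It was 193890 with 0 calling genes and 245785 with 5 or more. RPL10L, a testis paralogue, was 4.01-fold higher in ASO-L1, and RPL26 had a ratio of 0.436. RPL26 had a ratio of 1.02 in SO-L1. S phase genes had 6 of 43 lower and 1 higher in ASO-L1, and G2M genes 3 of 54 lower and 1, CDC20, higher. Replication-independent and linker histone genes had 4 of 16 higher and 0 lower. Mitochondrial ribosomal protein genes had 7 of 78 lower and 0 higher, and ZNF genes 20 of 478 higher and 27 lower. Over all measured genes 6.27% were higher and 14.9% lower, so the share lower in each of these lists was below that of all genes. In SO-L1 mitochondrial ribosomal protein genes had 0 of 76 lower and 3 higher. The histone list had a median log2 ratio of 0.43 in ASO-L1 and of 0.02 in SO-L1, where 0 of 9 were higher.

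Most of the lowest-ranked genes were long. KIAA0825, which overlaps SLF1 on the opposite strand, was ranked lowest, with 25.0 CPM in the 8C-like cells and 343 in the others of ASO-L1, and 195 against 1300 in SO-L1. Also lower in both libraries were LUZP2, at a ratio of 0.110 in ASO-L1 and 0.261 in SO-L1, FNBP1L, an actin regulator, at 0.119 and 0.326, RMST, a long noncoding RNA that binds SOX2, at 0.110 and 0.0615, and CDK6, a kinase of the G1 phase, at 0.130 and 0.238. GRIP1, a synaptic scaffold, had 0.102 and 0.457, and GPC6, a glypican, 0.133 and 0.297. FHIT, a fragile-site gene, had a ratio of 0.113 in ASO-L1 and 0.566 in SO-L1, short of 2-fold there.

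Over all measured genes the ratio moved with genomic length. In ASO-L1 the median log2 ratio was −0.07 for 6927 genes under 20 kb, −0.19 for 7452 of 20 to 100 kb, −0.45 for 2860 of 100 to 300 kb and −0.61 for 931 of 300 kb and over. The share at least 2-fold lower was 11.1%, 12.7%, 23.5% and 33.0% in that order. SO-L1 showed the same order, with medians of −0.10, −0.13, −0.36 and −0.70. Genes of 300 kb and over gave 1.81% of all UMIs in the 8C-like cells and 3.10% in the other low-mitochondrial cells of ASO-L1, and 3.86% against 5.98% in SO-L1. The nuclear RNAs MALAT1 and NEAT1, named after their values were seen, had 4348 against 6314 and 737 against 1364 CPM in ASO-L1, ratios of 0.689 and 0.540. In SO-L1 the ratio of MALAT1 was 1.27 and that of NEAT1 0.897, so the lower MALAT1 was not seen there. Counting of intronic reads is not stated in the sources used here, so the part of unspliced RNA in these values was not tested.

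**Figure D4:**
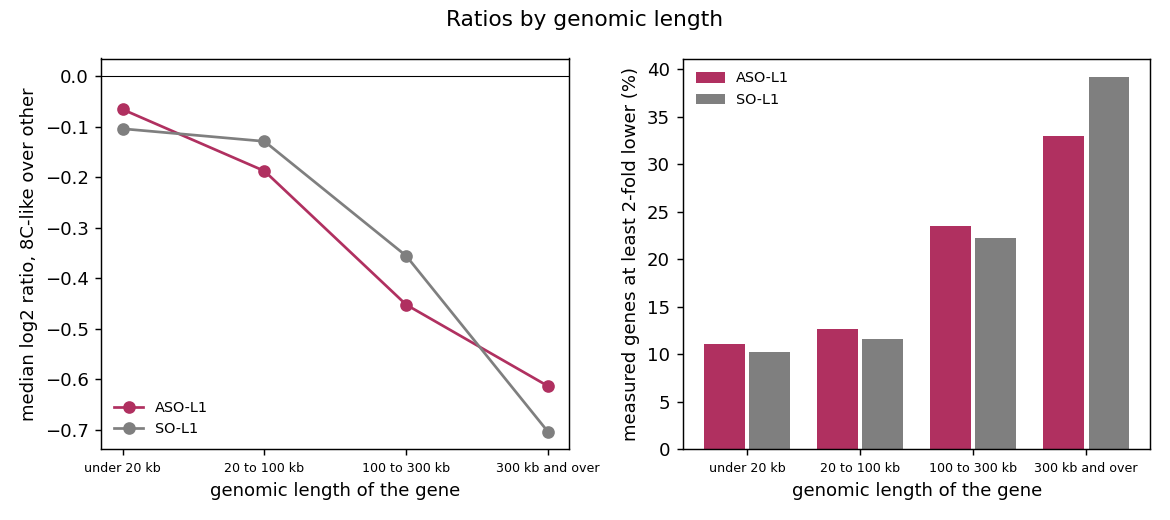
Left, median log2 ratio of 8C-like over other low-mitochondrial cells (y axis) by genomic length of the gene (x axis); right, the share of measured genes at least 2-fold lower (y axis, %), for ASO-L1 and SO-L1. In ASO-L1 the share lower was 11.1% under 20 kb and 33.0% at 300 kb and over.

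Within the low-mitochondrial cells of ASO-L1 many levels differed step by step with the number of calling genes, from 0 through 1, 2, 3 and 4 to 5 or more. The cell numbers were 1019, 834, 387, 161, 80 and 50, and their median UMIs were 40846, 48839.5, 46794, 47443, 49297.5 and 40837.5. The number of calling genes found also moves with depth, and no test is given. The summed other 8C genes stood at 292, 509, 1034, 1856, 2686 and 4050 CPM. DPPA3 stood at 22.2, 22.8, 85.3, 203, 655 and 1172, and KLF17 at 0.157, 0.750, 3.17, 10.4, 38.0 and 128. DPPA3 was thus alike with 0 and 1 calling gene and higher at each further step, and KLF17 was higher at each step.

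Other genes turned earlier or not in 1 direction. LEFTY2 stood at 807, 581, 366, 221, 98.2 and 95.8 CPM, lower at each step. The primed list stood at 1386, 813, 639, 535, 557 and 443, so much of its difference was already present between 0 and 1 calling gene. The general pluripotency list stood at 4169, 2296, 1754, 1593, 1911 and 1834, also with most of its difference between 0 and 1, and cells with KHDC1L alone had 2134 for it. KIAA0825 stood at 651, 193, 62.4, 17.5, 46.3 and 15.8. SOX2 stood at 182, 88.0, 65.2, 70.6, 117 and 124, lowest in the middle. The naive list stood at 1517, 1982, 2896, 4272, 4668 and 4029, and the nucleolar list at 7236, 7252, 7621, 8286, 9988 and 10755. KRT17 stood at 11.3, 68.2, 54.2, 19.3, 15.9 and 12.4, so that its low ratio in the 8C-like cells rests on high values in cells with 1 or 2 calling genes.

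**Figure D5:**
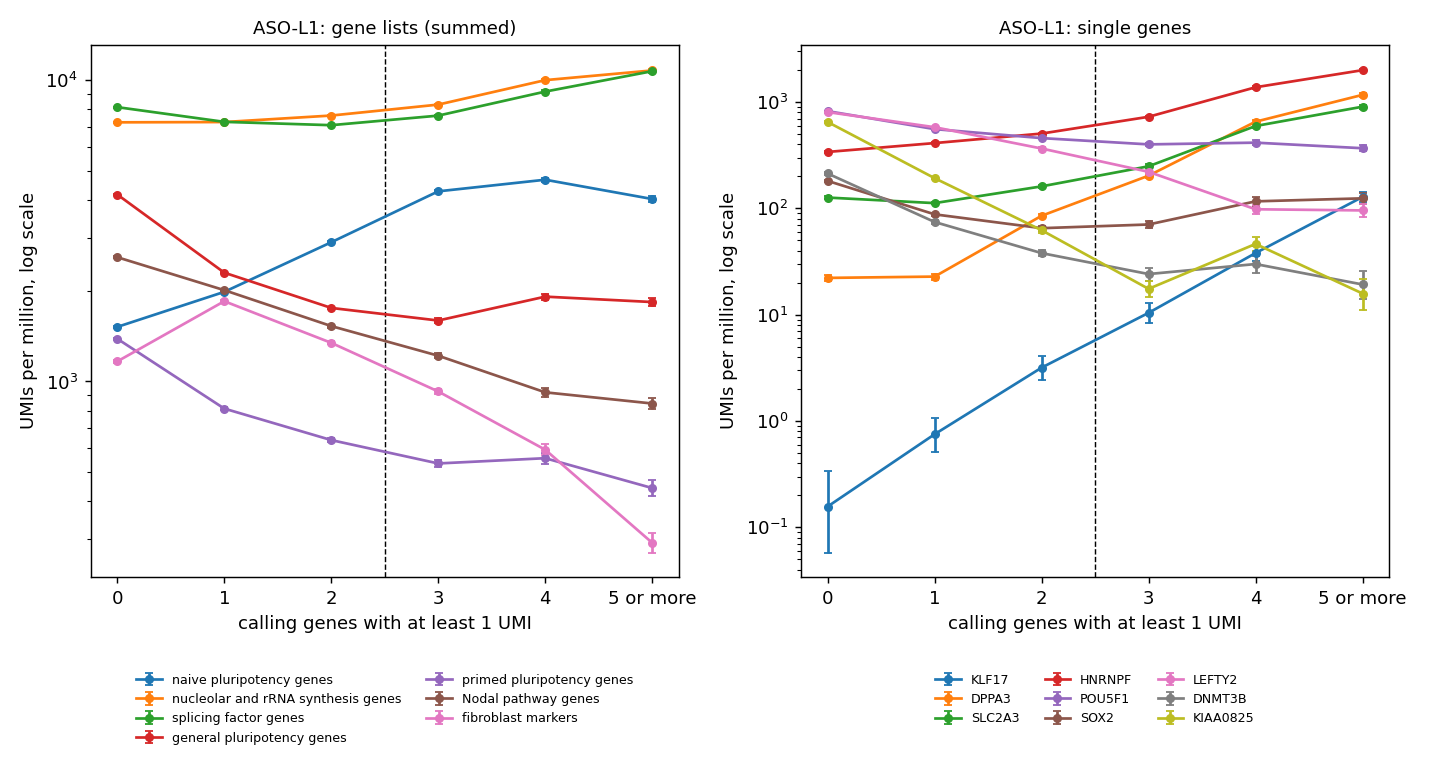
Levels in ASO-L1 (y axis, CPM, log scale) of named genes and of gene lists by the number of calling genes with a UMI (x axis, 0 to 5 or more), with exact 95% intervals for counting error as bars; cells right of the dashed line are 8C-like. DPPA3 stands at 22.2 with no calling gene and 1172 with 5 or more, and LEFTY2 at 807 and 95.8.

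The 8C-like cells were not uniform. The 101 with a ZSCAN4 UMI were set beside the 190 without, a split by a calling gene that is described without a test. GNRH1 stood at 255 against 60.4 CPM, H3.Y at 80.4 against 4.66, KLF17 at 83.0 against 10.3, DPPA3 at 853 against 267 and SLC2A3 at 718 against 294. CCNA1 went the other way, at 784 against 1269, and so did the naive list, at 3859 against 4612. Cells with KHDC1L alone of the 8 numbered 666 and were not 8C-like by the rule. The other 8C genes summed to 2427 CPM in the 8C-like cells, against 468 in those 666, and DPPA3 stood at 478 against 14.2. The 17 8C-like cells with no homeobox calling gene stood at 6666 CPM for the p53 target list, against 3022 in the 274 with one, and had 0 UMIs of KLF17 and H3.Y. Other 8C genes of these 17 summed to 1171 CPM, against 2488 in the 274 and 1034 in cells with 2 calling genes. Their naive list stood at 2390, against 4435 in the 274.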

How the data were processed

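The deposited values are UMI counts per gene and barcode in 1 matrix for each of 2 libraries, made by the authors with Cell Ranger 7.1.0. The version is recorded per the file headers, and the build, hg38, per the submitters' processing notes. The sources used here do not give annotation release, cell calling, strand or intron use. Barcodes with 1000 or more detected genes were kept. Counts were summed over the 8C-like cells and over the other low-mitochondrial cells of a library and scaled to 1000000 UMIs (CPM), leaving out 13 mitochondrial genes. A ratio has an exact 95% conditional binomial interval, a sum of 0 was set to 3 UMIs, and a gene counted as measured when 10 or more UMIs were expected in the 8C-like cells at equal levels. Shares of cells with a UMI were taken after thinning to 12500 UMIs, and shallower cells were left out. Because 1 library stands for each group, cells are no replicates, and neither p-values nor standard errors were computed. The ratio and its interval were checked on simulated counts.

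Named genes were the 15 highest and 15 lowest by the bounds of the ASO-L1 ratio (the highest among genes with a UMI in at least 25% of 8C-like cells), the 2 extreme and 2 most abundant measured genes of each list, and a fixed set. Further list members, named to show which genes a count holds, were chosen after their values were seen. Members and lists were chosen with earlier results of these data known. Of 36601 genes 34616 matched GENCODE 29, which gave positions and lengths, and 10 symbols occurred more than once, of which the first row was used. Promoters came from RefSeq (GRCh38.p14). Alternatives covered the calling threshold, mitochondrial limit, depth, shared barcodes, comparison cells, scaling and filters. Tools were Python 3.11.15, numpy 2.4.6, scipy 1.17.1, pandas 2.3.3 and matplotlib 3.10.9.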

Additional observations from a re-analysis of the deposited data

Results flagged for a closer look

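Cells with 3 or more calling genes were also found outside the low-mitochondrial class, which is a signal in barcodes that the comparisons above do not use. In ASO-L1 91 of 7083 barcodes at 2% or more mitochondrial UMIs held 3 or more (1.28%, 1.04 to 1.58), and in SO-L1 0 of 5168 did, which allows a share of up to 0.0580% by the floor of 3 counts and 0.0714% by the exact interval. These 91 had a median of 76995 UMIs and a mitochondrial share of 4.16%, against 54283 UMIs and 7.54% in the other 6992. Their other 8C genes summed to 1979 CPM, against 146 in the other 6992. Their general pluripotency list stood at 3103, against 5410. After thinning to 12500 UMIs, 20 of 6455 (0.310%) held 3 or more. The part of depth or of mixed barcodes in this count was not tested.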

How the results depend on the processing

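No paired analysis was possible because each oligonucleotide has 1 library. Of the ASO-L1 results, the 8C-like share was 11.5% and became 26.8% with at least 2 calling genes, 5.14% with at least 4, and 6.81% when calling genes were counted in thinned cells. The same share in SO-L1 became 2.91% with at least 2. The number of genes at least 2-fold higher (1161) became 750 without shared barcode sequences, where fewer genes pass the filter, 2143 against cells with 0 calling genes, 1888 with at least 3 expected UMIs and 651 with at least 30. The number lower (2751) became 4179 against cells with 0 calling genes, as did the median of other 8C genes, 5.71 in place of 3.83. The general pluripotency median lay between −1.22 and −0.53 and the primed median between −1.89 and −0.87 over 18 settings, and the nucleolar median between 0.24 and 0.56. The stress keratin median ran from −1.44 to 1.47. In SO-L1 the counts ran from 193 to 1103 higher and from 608 to 2124 lower.

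Called ASO-L1 genes that changed sign were KRT17, 0.056 without shared sequences and 0.61 against cells with 0 calling genes (−1.33 as reported), and PDGFRA, 0.38 without shared sequences. Values short of 2-fold also changed sign, among them the medians of the naive list, −0.30 to 0.15, and of the stress keratin list, and the log2 ratios of SOX2, −0.99 to 0.05, and NANOG, −0.91 to 0.05. In SO-L1 changes of sign included the medians of splicing factors, −0.078 with at least 2 calling genes, of cytoplasmic ribosomal proteins, 0.027 with each cell weighing the same and 0.16 after dividing by the median ratio, and of the integrated stress response, −0.27 without the 10 cells with most UMIs. The causes were not tested. Leaving out barcodes above the 95th percentile of UMIs moved none of the ASO-L1 counts by over 1.5 times. SO-L1 values rest on 17 cells. The shared sequences left out only where they had fewer UMIs, an alternative chosen after seeing the data, gave 1161 higher and 2752 lower.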
